A study of Homo sapiens with 6 samples.

Results

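Replication-dependent histone genes encode the bulk of the histones that package DNA newly made in S phase. Humans carry many near-identical copies of the core histones H2A, H2B, H3 and H4 and of the linker histone H1, most of them in clusters on chromosomes 6 and 1. The genes have no introns in their classical form, their mRNAs end in a conserved stem-loop instead of a poly(A) tail, and SLBP binds that stem-loop. NPAT, a substrate of cyclin E and CDK2, coordinates their transcription at nuclear structures called histone locus bodies. Members were the protein-coding genes of GENCODE release 44 on GRCh37 (hg19) whose whole name was H1-1 to H1-6, or H2AC, H2BC, H3C or H4C and a number. There were 64 such genes among 20162 protein-coding genes on the nuclear chromosomes. They comprised 6 H1, 16 H2A, 16 H2B, 13 H3 and 13 H4 genes. The rule uses names only, but this set of genes was chosen with earlier results of these data known.

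Open chromatin was mapped with ATAC-seq, which uses a transposase that can insert adapters only where DNA is accessible. The cells were MDA-MB-231, a triple-negative breast cancer line of mesenchymal character, grown in DMEM with serum. The groups were 3 libraries of parental cells and 3 of SAP30-KO1 cells, to ask how accessibility differs once SAP30, a subunit of the SIN3 corepressor complex, is lost. According to the methods of the study, knockout lines were made with CRISPR/Cas9 and are mixtures of several selected knockout cells, and no other treatment was labelled for either group. No label says that the replicates came from separate cultures, so their spread may be technical. Each library has a list of peak summits with a score, the −log10 of the q value of the peak. A gene took its best-scoring summit within 1 kb of the start of any of its transcripts, and the score was expressed as a percentile rank from 0 to 100 within the list of its library, with 0 where no summit lay in that window. A rank is therefore a level of peak significance relative to the other peaks of that library and not a count of reads. Lists held 29762 to 40650 summits, the shortest being SAP30-KO1 replicate 1, and the depth in reads is unknown. SAP30 itself had a promoter summit in every library, with ranks of 84.7, 64.8 and 81.3 in parental and 71.8, 49.5 and 89.5 in SAP30-KO1 cells, which does not check a CRISPR lesion in the gene. Of 8 genes that mark mesenchymal-like MDA-MB-231 cells, 8 had a promoter summit in some library, and 6 had one in all 6. Of the 9 luminal breast markers, 7 had a promoter summit in some library, but none had one in all 6. CDH1 and KRT19 had none in any. None of 5 blood markers and 2 endothelial markers had a summit.

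First, the layout of the members was examined. The cluster on chr6 held 51 members between 25723625 and 27861669, in 3 stretches of 30, 5 and 16 genes separated by gaps of at least 400 kb. On chr1, 10 members lay between 149754245 and 149859515, and H2AC25 and H2BC26 formed a separate pair between 228622478 and 228650805. H4C16 stood alone on chr12. Within the clusters, 10 pairs of neighbouring H2A and H2B genes were transcribed away from each other from starts only 171 to 252 bases apart, so that 20 of the 32 H2A and H2B genes shared their upstream DNA with a partner. These intergenic stretches are shown because both genes of a pair with a summit shared it, and because they separate pairs with high, low and no measured accessibility. The shared summits did not always lie between the starts. Those of H2BC12 and H2AC12 lay 162 to 239 bp downstream of the H2AC12 start. They were read from GRCh37 from one gene start to the other, 5′ to 3′ on the plus strand. Capitals mark TATAAA (the TATA box), CCAAT (the box bound by NF-Y) and ATTTGCAT (the octamer bound by POU2F1) or their reverse complements; where TTTATA and TATAAA overlap, the merged letters are in capitals.
H2BC11 and H2AC11, chr6:27100574-27100822, plus strand: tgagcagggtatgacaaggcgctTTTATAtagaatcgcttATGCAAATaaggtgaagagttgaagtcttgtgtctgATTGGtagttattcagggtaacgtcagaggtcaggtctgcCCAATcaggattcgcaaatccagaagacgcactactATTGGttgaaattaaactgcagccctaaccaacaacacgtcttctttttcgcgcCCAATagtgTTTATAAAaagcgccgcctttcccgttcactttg
H2BC12 and H2AC12, chr6:27114634-27114885, plus strand: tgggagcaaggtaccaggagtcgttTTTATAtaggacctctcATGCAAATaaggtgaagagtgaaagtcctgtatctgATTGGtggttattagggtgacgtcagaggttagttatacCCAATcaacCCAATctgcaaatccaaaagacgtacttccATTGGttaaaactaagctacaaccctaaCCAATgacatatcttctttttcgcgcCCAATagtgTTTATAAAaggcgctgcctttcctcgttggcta
H2BC4 and H2AC6, chr6:26124154-26124373, plus strand: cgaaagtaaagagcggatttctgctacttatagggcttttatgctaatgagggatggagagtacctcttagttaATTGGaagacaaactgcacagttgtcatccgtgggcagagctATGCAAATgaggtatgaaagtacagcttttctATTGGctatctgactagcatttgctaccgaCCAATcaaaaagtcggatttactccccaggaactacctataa
H2BC21 and H2AC20, chr1:149858232-149858468, plus strand: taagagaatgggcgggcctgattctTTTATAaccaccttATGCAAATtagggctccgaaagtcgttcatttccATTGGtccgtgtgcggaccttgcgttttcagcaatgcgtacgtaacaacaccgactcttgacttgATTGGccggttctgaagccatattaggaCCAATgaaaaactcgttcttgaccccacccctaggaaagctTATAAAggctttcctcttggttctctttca
H2AC1 and H2BC1, chr6:25726790-25727005, plus strand: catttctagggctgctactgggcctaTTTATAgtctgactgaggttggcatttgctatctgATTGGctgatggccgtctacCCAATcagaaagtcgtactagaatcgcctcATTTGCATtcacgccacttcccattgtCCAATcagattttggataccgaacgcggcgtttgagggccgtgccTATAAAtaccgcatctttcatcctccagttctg
H2AC14 and H2BC14, chr6:27782555-27782800, plus strand: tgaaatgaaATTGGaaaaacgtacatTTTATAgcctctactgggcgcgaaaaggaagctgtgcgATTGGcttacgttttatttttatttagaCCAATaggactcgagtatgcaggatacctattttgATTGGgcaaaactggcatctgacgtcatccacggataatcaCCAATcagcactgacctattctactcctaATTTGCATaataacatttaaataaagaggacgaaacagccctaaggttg

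The first 3 of these pairs had a summit in all 6 libraries, H2BC21 with H2AC20 in 4, H2AC1 with H2BC1 in 3, and H2AC14 with H2BC14 in none. All 6 stretches held 1 octamer, and they held 3 to 6 CCAAT boxes counted on both strands. The H2BC4 and H2AC6 stretch had no TATAAA on either strand between the starts, but H2AC6 had 1 in the wider promoter window used below. The H2AC14 and H2BC14 stretch had 1 TATAAA and 5 CCAAT boxes. The letters of these motifs therefore occurred in pairs with and without a summit.

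Promoter sequence was then compared with that of all genes, over 250 bases before to 50 after the start of the gene record. TATAAA was searched on the strand of the gene, and CCAAT and ATTTGCAT on both strands. TATAAA occurred in 37 of 64 members (57.8%) and in 7.56% of all protein-coding promoters. CCAAT occurred in 55 members (85.9%) and in 35.8% of all promoters, and ATTTGCAT in 24 members (37.5%) and in 1.66%. The octamer was found in 12 of 16 H2A genes and 11 of 16 H2B genes, in 1 H3 gene, and in none of the H1 and H4 genes. Members had a median promoter GC content of 44.2%, against 60.3% for all genes. Histone promoters thus differed in letters from most promoters and among their own classes. A match of letters is a description and not a site of binding.

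A 16-base stem-loop, searched as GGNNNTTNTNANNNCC on the strand of the gene in the 150 bp after an annotated stop codon, occurred in 64 of 64 members. It occurred in 0.798% of the 20042 protein-coding genes with an annotated stop codon. Members used 10 forms of it, of which the 4 commonest covered 58 genes and are shown as the shared mark of the family, all 16 bases in capitals.
Form of 38 members: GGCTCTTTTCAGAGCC
Form of 8 members: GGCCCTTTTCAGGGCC
Form of 8 further members: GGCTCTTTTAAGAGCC
Form of 4 members: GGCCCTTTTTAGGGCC

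Next, accessibility of the members was examined. Of the 64 genes, 32 (50%) had a promoter summit in at least 1 library, 21 (32.8%) had one in all 6, 11 had one in 1 to 5 libraries, and 32 had none. Among all protein-coding genes 62.3% had a summit in some library and 34.6% in all 6. The 21 members with a summit in every library had a median mean rank of 78.4, where the 6966 genes of that kind in the genome had 71.3. The 32 members with any summit used only 23 distinct sites, because 17 members shared 8 of them, so neighbouring genes are not independent measurements. The heat map of all members by library shows these ranks in genomic order.

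**Figure D1:**
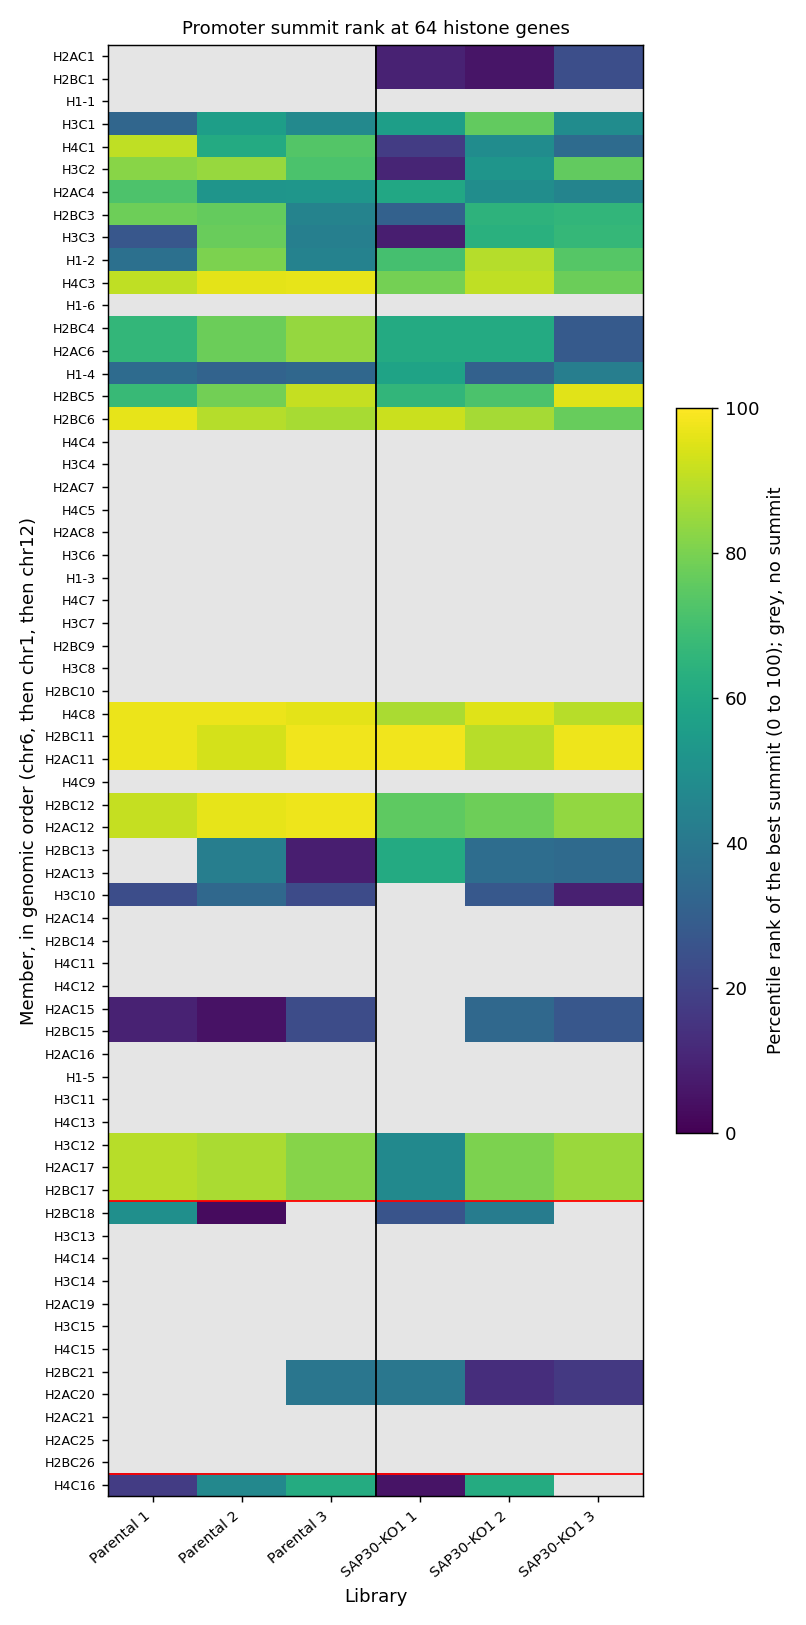
Percentile rank of the best promoter summit of each of the 64 members (vertical axis, in genomic order on chr6, chr1 and chr12, divided by red lines) in each of the 6 libraries (horizontal axis). Grey marks no summit within 1 kb; 12 neighbouring chr6 genes from H4C4 to H2BC10 are grey in all 6 libraries, and H2BC11 with H2AC11 rank between 89.2 and 97.8.

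Summits lay close to the starts. The 127 distinct summits of the members had a median distance of 108 bp from the nearest member start, and 96.1% lay within 250 bp. None was over 500 bp away, 39 were upstream and 87 downstream. Counted per gene and library from the starts of the gene itself, 83.9% of the 174 member values and 80.1% of those of all genes came from a summit within 250 bp. By that count 50.6% of member values lay downstream and 48.9% upstream, beside 41.0% and 58.4% for all genes. In 16 members the start of another gene was nearer to the summit in at least 1 library.

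**Figure D2:**
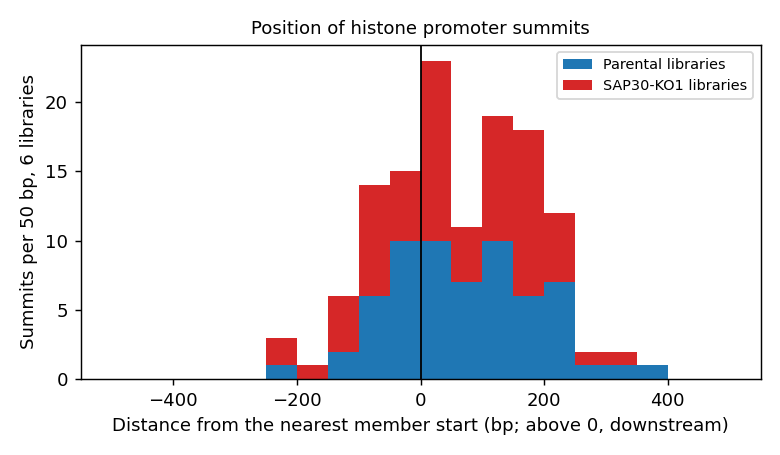
Number of distinct member summits per 50 bp (vertical axis) by distance from the nearest member start (horizontal axis, bp, positive values downstream), stacked for the 3 parental and 3 SAP30-KO1 libraries. Of 127 summits, 87 lie downstream and 39 upstream, and 96.1% lie within 250 bp.

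The highest ranks were at core histone genes on chr6. H2BC11 and H2AC11, a divergent pair at chr6:27093676-27101314, shared summits that ranked 96.9, 93.7 and 97.7 in parental and 97.8, 89.2 and 97.6 in SAP30-KO1 cells. H4C8 at chr6:26277837-26285866 ranked 96.98, 96.97 and 96.0 in parental and 87.2, 95.2 and 89.2 in SAP30-KO1 cells. H4C3 ranked 90.3, 95.8 and 96.5 in parental and 79.1, 90.6 and 77.5 in SAP30-KO1 cells. In H4C8 every SAP30-KO1 library was below every parental library, whereas H2BC11 and H4C3 overlapped between groups. H2BC6, a further H2B gene, ranked 96.1, 88.9 and 86.8 in parental and 91.9, 86.6 and 76.8 in SAP30-KO1 cells, also with overlap. By their means over 6 libraries these were the top 5 members, at 95.5 for the H2BC11 pair, 93.6 for H4C8, 88.3 for H4C3 and 87.9 for H2BC6. The ranges over 6 libraries of neighbours in that order overlapped.

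The lowest ranks among members with a summit in all 6 libraries fell to 1 linker and several core histone genes. H1-4, encoding a linker histone, ranked 34.9, 31.9 and 33.5 in parental and 58.1, 31.03 and 42.8 in SAP30-KO1 cells, with a mean of 38.7. H3C3 ranked 27.1, 77.3 and 43.3 in parental and 8.45, 63.3 and 66.7 in SAP30-KO1 cells. Its libraries of both groups spread widely and overlapped. H3C1 ranked 33.0, 55.9 and 47.2 in parental and 56.1, 76.1 and 48.6 in SAP30-KO1 cells, and H2AC4 ranked 72.2, 52.3 and 52.7 in parental and 59.9, 49.03 and 45.3 in SAP30-KO1 cells. H4C1 also belonged to these 5 members and is described with the comparison of parental and knockout cells.

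Clusters were compared next. On chr6, 28 of 51 members had a summit in some library and 21 in all 6. On chr1, 3 of the 10 clustered members had one in some library and none in all 6, and H2AC25 and H2BC26 had none. The chr1 members with a summit were H2BC18, with ranks of 49.98, 2.85 and 0 in parental and 25.9, 42.0 and 0 in SAP30-KO1 cells, and the pair H2BC21 and H2AC20, with 0, 0 and 39.1 in parental and 39.6, 13.2 and 16.7 in SAP30-KO1 cells. Over members with any summit, the median rank on chr6 exceeded that on chr1 in 6 of 6 libraries, by 69.8, 77.6 and 33.2 in parental and by 19.5, 50.9 and 49.5 in SAP30-KO1 libraries (mean 50.1). The chr1 value rests on 3 genes at 2 sites. H4C16 on chr12 ranked 17.7, 46.5 and 61.5 in parental and 5.37, 61.5 and 0 in SAP30-KO1 cells, without separation of the groups. Within chr6, 4 of the 5 genes of the middle stretch had a summit in all 6 libraries, with a median mean rank of 91.3. H4C9 was the exception, with no summit. In the first stretch 14 of 30 and in the last 3 of 16 members had summits in all 6.

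Near-identical copies make reads hard to place, and how reads matching several places were treated is not given in the sources used here. For each gene, the share of 75-base windows within 500 bp of its start that occur more than once in GRCh37 was therefore counted, 75 bases being the read length. The share was 100% for H4C14, H3C14, H2AC19, H3C15 and H4C15 and 55.6% for H3C13, all on chr1 and all without a summit. The highest share was 17.7% in a member with a summit in all 6 libraries and 42.4% in a member with any. A lack of a summit at the 5 fully repeated genes and closed chromatin there cannot be told apart. On chr1 the gene H2AC21 had 0% repeated windows and no summit, the nearest being 1157 bp away. Of the 32 members without a summit, 20 had no repeated window. Leaving out members over 50% repeated could not change the chr6 minus chr1 value of 50.1, because none of those had a summit. Of the 7 members of the chr1 cluster without a summit, only H2AC21 was not over 50% repeated. The lower number of chr1 members with a summit and the repeated sequence there therefore cannot be told apart.

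**Figure D3:**
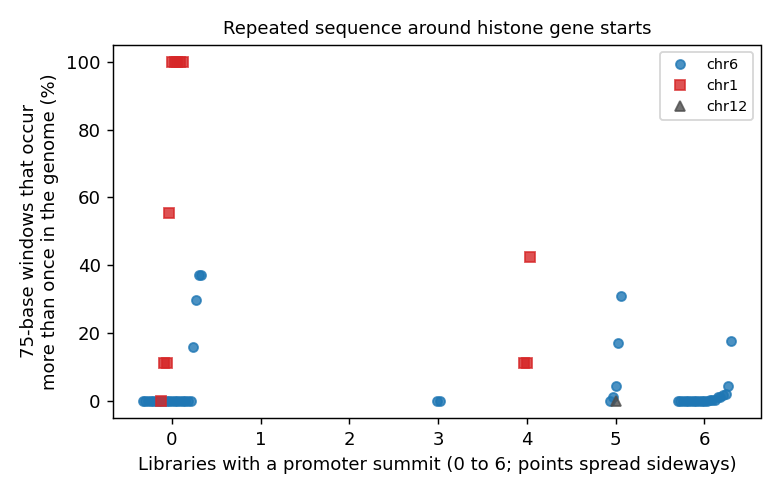
Share of 75-base windows within 500 bp of the gene start that occur more than once in the genome (vertical axis, %) against the number of libraries with a promoter summit (horizontal axis), 1 point per member on chr6, chr1 or chr12. The 5 members at 100% and the 1 at 55.6% are on chr1 and have no summit, while 20 members without a summit are at 0%.

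The longest run without a summit consisted of 12 consecutive chr6 members, H4C4, H3C4, H2AC7, H4C5, H2AC8, H3C6, H1-3, H4C7, H3C7, H2BC9, H3C8 and H2BC10, over 83.8 kb at chr6:26189340-26273159. All 12 had 0% repeated windows. In 3 libraries 1 summit lay inside the run, 1363 bp from the start of H4C5 at its nearest, and the other libraries had none inside it. H4C7 was farthest from any summit, at 38.3 kb. TATAAA occurred in 33.3%, CCAAT in 75% and ATTTGCAT in 33.3% of these 12 promoters, and their median GC content was 39.7%. The run lay between H2BC6, whose mean rank was 87.9, and H4C8, whose mean rank was 93.6. The other chr6 members without a summit were H1-1, H1-6, H4C9, H2AC14, H2BC14, H4C11, H4C12, H2AC16, H1-5, H3C11 and H4C13. The 32 members without a summit were a median of 13.0 kb from the nearest summit of any library, and 25 of them were over 5 kb away.

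The promoter of H4C8, which follows this run, and that of H4C4, the first gene within it, are shown to set an H4 gene with a high rank beside one with no summit. They span 250 bases before to 50 after the start of each gene record in GRCh37, on the strand of the gene, with capitals as above.
H4C8, summit in all 6 libraries, chr6:26285817-26286116, minus strand: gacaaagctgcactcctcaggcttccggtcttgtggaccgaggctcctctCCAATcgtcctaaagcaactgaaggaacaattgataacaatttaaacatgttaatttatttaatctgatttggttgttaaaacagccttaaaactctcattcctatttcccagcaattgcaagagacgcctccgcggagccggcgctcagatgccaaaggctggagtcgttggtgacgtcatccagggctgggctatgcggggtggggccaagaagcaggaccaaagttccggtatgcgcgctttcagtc
H4C4, no summit, chr6:26189291-26189590, minus strand: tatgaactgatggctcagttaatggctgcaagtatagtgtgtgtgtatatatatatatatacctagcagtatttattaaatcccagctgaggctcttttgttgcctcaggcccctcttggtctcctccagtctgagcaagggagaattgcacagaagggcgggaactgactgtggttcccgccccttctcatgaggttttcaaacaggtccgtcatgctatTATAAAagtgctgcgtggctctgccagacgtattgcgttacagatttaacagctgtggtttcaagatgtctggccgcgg
Within these stretches H4C8 had 1 CCAAT box and no TATAAA, and H4C4 had 1 TATAAA and no CCAAT box. The summits of H4C8 lay 87 to 242 bp downstream of its nearest transcript start. None lay nearer than 191 bp to the start of the gene record. They were therefore outside the printed stretch, and other transcript starts of H4C8 were not searched for motifs. Over the members, promoters with a summit in all 6 libraries held TATAAA in 66.7%, CCAAT in 95.2% and ATTTGCAT in 52.4% of genes, and those without any summit in 46.9%, 78.1% and 25%. Median GC contents were 44% and 45.5%. These shares are a description over genes that share promoters, and 5 of the genes without a summit lay wholly in repeated sequence.

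Classes were compared across clusters. H2B had a summit in some library in 12 of 16 genes, H2A in 9 of 16, H3 in 5 of 13, H1 in 2 of 6 and H4 in 4 of 13. Summits in all 6 libraries were found in 7 H2B, 5 H2A, 4 H3, 3 H4 and 2 H1 genes. The few H4 genes with a summit ranked high, with mean ranks of 93.6, 88.3, 54.4 and 32.1 for H4C8, H4C3, H4C1 and H4C16. H1-2 and H1-4 were the linker histone genes with a summit, and H1-1, H1-3, H1-5 and H1-6 had none. H1-6 encodes a testis-specific linker histone, and H2AC1 and H2BC1 encode testis-enriched core histones. Among genes with any summit, the median rank of H2B minus that of H2A was 0.606, 24.8 and 10.7 in parental and −5.81, 13.95 and 15.7 in SAP30-KO1 libraries (mean 9.99), so the sign was not the same in every library. With each shared summit counted once the mean was 52.1, since shared pairs then kept 1 gene only. Of the 10 divergent H2A and H2B pairs, 8 had a summit that both genes shared and 2 had none.

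**Figure D4:**
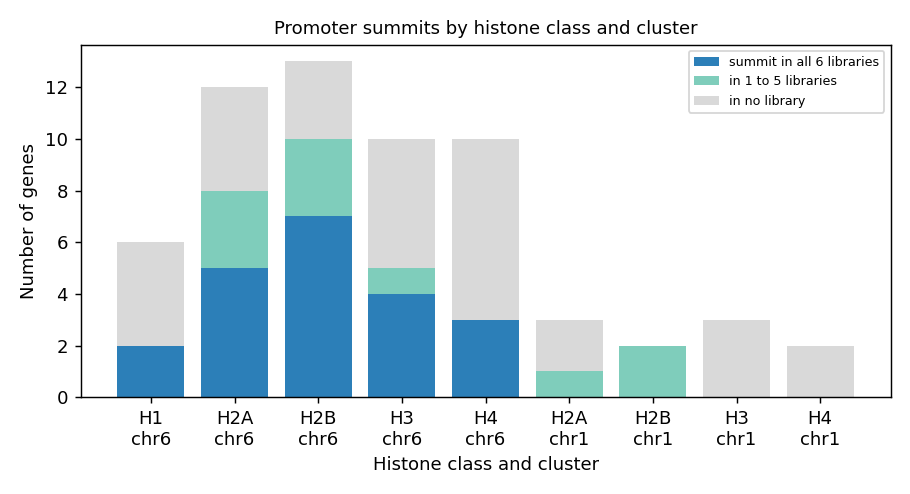
Number of members (vertical axis) of each histone class on chr6 and chr1 (horizontal axis), divided into genes with a promoter summit in all 6 libraries, in 1 to 5 and in none. H2B on chr6 has the most genes with a summit, 10 of 13, and no H3 or H4 gene on chr1 has one; H4C16 on chr12 is not drawn.

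Parental and SAP30-KO1 cells were then compared. The number of members with a summit was 26, 28 and 29 in parental and 29, 32 and 30 in SAP30-KO1 libraries. The means were 27.7 ± 1.53 and 30.3 ± 1.53 (SD, n = 3), a difference of 2.67 (two-sided exact permutation p = 0.2, where 20 assignments allow no p under 0.1). The groups touched at 29 members. On chr6 the numbers were 24, 26 and 26 against 25, 28 and 28 (exact permutation p = 0.3), and on chr1 they were 1, 1 and 2 against 3, 3 and 2 (exact permutation p = 0.2).

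Ranks were examined at the 21 members with a summit in all 6 libraries. Of these genes, 18 had a lower mean rank in SAP30-KO1 cells, against 47.9% of the 6966 genes of that kind in the genome. Their median rank was 89.2, 84.7 and 81.9 in parental and 60.9, 78.1 and 76.8 in SAP30-KO1 libraries, without overlap, where that of all such genes was 78.1, 71.3 and 75.7 and then 71.4, 79.9 and 74.9, with overlap. The median difference over the 21 genes was −11.8 rank points, against 0.335 for all such genes. It was −6.89 over their 16 distinct sites, of which 13 were lower, and −3.53 without SAP30-KO1 replicate 1, where 16 of 21 genes were lower. The 11 members with a summit in 1 to 5 libraries went the other way by count, with 2 lower and 9 higher. Their median difference was 10.1, with a missing summit taken as rank 0. Over all 32 members with any summit the median difference was −4.30 and 20 were lower. For all 12564 genes with a summit the median was 0.679 and 5893 were lower. The median over the 32 members was −2.69 without SAP30-KO1 replicate 1. No test was made over the members.

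Genes around the members were measured for comparison. Of the 21 other protein-coding genes within the chr6 cluster, 1 is itself an H4 gene under an older name, HIST1H4B, and was left out here. Among the rest, 8 had a summit in all 6 libraries, and 6 of these had a lower mean rank in SAP30-KO1 cells, with a median difference of −3.26, which was −1.92 without SAP30-KO1 replicate 3. Their median rank was 92.5, 91.9 and 92.4 in parental and 87.8, 87.9 and 87.3 in SAP30-KO1 libraries. BTN2A1, a butyrophilin gene, ranked 91.3, 84.4 and 70.4 in parental and 18.1, 30.3 and 52.5 in SAP30-KO1 cells, and BTN2A2 and HMGN4 were also below every parental library in every SAP30-KO1 library. Over the 226 genes of the short arm of chromosome 6 with a summit in all 6 libraries, members included, the median difference was −1.56, and 0.101 without SAP30-KO1 replicate 1. When ranks were taken among summits of the same arm only, the 21 members kept a median difference of −11.3, with 18 lower, and all genes had 0.273. The part of the region in the difference of the members was not tested.

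**Figure D5:**
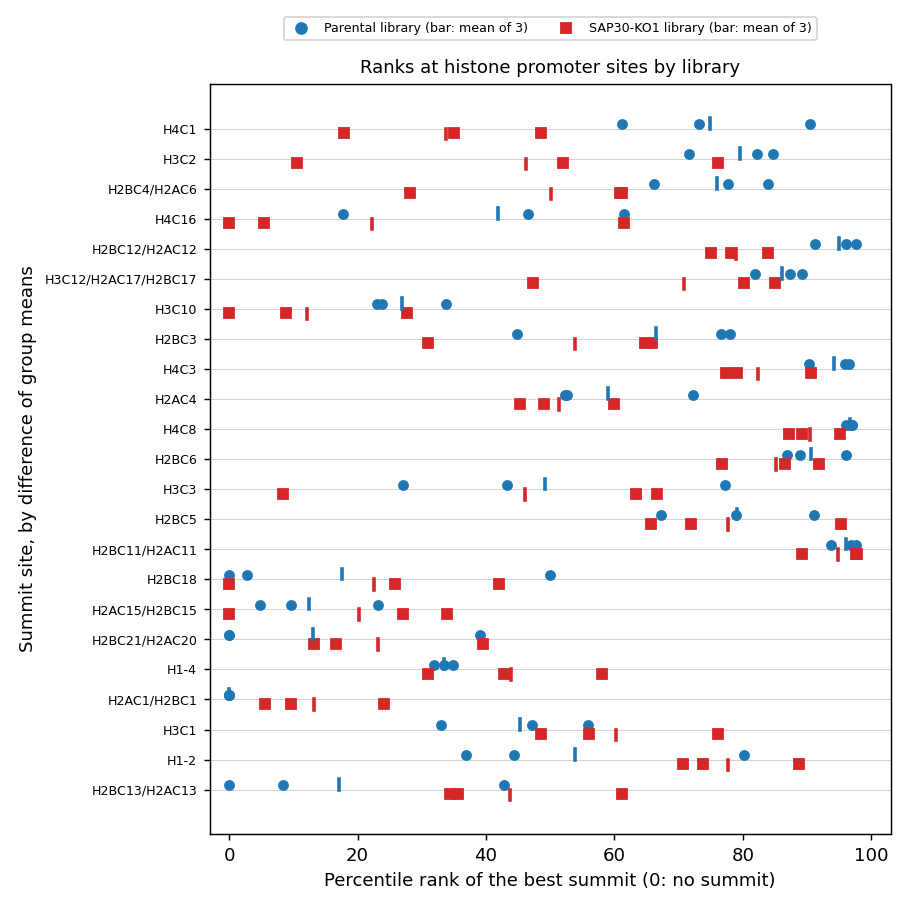
Percentile rank (horizontal axis, 0 where no summit was called) at each of the 23 distinct summit sites (vertical axis, named by the genes that share them and ordered by the difference of group means, most negative on top). Blue circles are parental and red squares SAP30-KO1 libraries, 3 each, and short bars are their means; H4C1, H2BC4 with H2AC6, H2BC12 with H2AC12 and H4C8 have all red squares below all blue circles.

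In 6 members, at 4 sites, every SAP30-KO1 library ranked below every parental library. Among all 12564 genes tested 4.58% did so. Of the neighbouring genes on chr6 that are no histone genes, 3 of 13 with any summit did so (23.1%), beside 6 of 28 chr6 members (21.4%). The count of members was 11 without parental replicate 3, where the share of all genes was 8.77%, and 10 without SAP30-KO1 replicate 3, where it was 7.18%. H4C1 at chr6:26021877-26022278, on the plus strand, ranked 90.4, 61.1 and 73.1 in parental and 17.9, 48.6 and 35.1 in SAP30-KO1 cells. The highest SAP30-KO1 library was thus below the lowest parental one, and the means were 74.9 ± 14.7 and 33.8 ± 15.4 (SD, n = 3), a difference of −41.1 ± 15.5 (SE; limma, adjusted p = 0.808). H2BC12 and H2AC12 at chr6:27114140-27115341 ranked 91.3, 96.1 and 97.6 in parental and 75.03, 78.1 and 83.9 in SAP30-KO1 cells, with means of 95.0 ± 3.32 and 79.0 ± 4.51 (SD, n = 3) and a difference of −16.0 ± 4.42 (SE; limma, adjusted p = 0.808). Their summits lay 162 to 239 bp inside H2AC12. This pair showed the smallest unadjusted p among the members. H2BC4 and H2AC6 ranked 66.1, 77.6 and 84.0 in parental and 60.9, 61.1 and 28.2 in SAP30-KO1 cells, a difference of −25.8 ± 13.6 (SE; limma, adjusted p = 0.808). H4C8, whose ranks are given above, differed by −6.13 ± 2.87 (SE; limma, adjusted p = 0.808). H4C8 was not separated when ranks were taken within the arm, H4C1 with a window of 2.5 kb, or H2BC4 and H2AC6 with lists of equal length.

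In 2 members at 1 site, H2AC1 and H2BC1, every SAP30-KO1 library ranked above every parental library, where 6.01% of all genes tested did so. The count was 6 without parental replicate 2 and 4 without either parental replicate 3 or SAP30-KO1 replicate 1, where the shares of all genes were 8.69%, 10.2% and 14.4%. The pair was without a summit in all 3 parental libraries and ranked 9.69, 5.59 and 24.2 in SAP30-KO1 cells, a difference of 13.2 ± 7.86 (SE; limma, adjusted p = 0.808). These were weak peaks, and the call was lost with summits of q 0.0001 or less and with lists of equal length.

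Larger differences without separation of the groups were also present. H3C2 ranked 82.2, 84.7 and 71.6 in parental and 10.5, 52.0 and 76.1 in SAP30-KO1 cells (difference −33.3), and SAP30-KO1 replicate 3 lay within the parental range. H1-2 ranked 36.9, 80.1 and 44.3 in parental and 70.7, 88.8 and 73.7 in SAP30-KO1 cells (difference 23.9). H2BC13 and H2AC13 ranked 0, 42.9 and 8.35 in parental and 61.1, 35.7 and 34.4 in SAP30-KO1 cells (difference 26.7). H3C1 differed by 14.9 and H4C16 by −19.6. The 3 members H3C12, H2AC17 and H2BC17, which shared 1 site, ranked 89.2, 87.4 and 81.9 in parental and 47.3, 80.2 and 85.1 in SAP30-KO1 cells, with SAP30-KO1 replicate 1 the lowest (difference −15.3).

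In the limma fit over 12564 genes, no member and no other gene passed an adjusted p of 0.05 (0.0% of genes in either direction). At an unadjusted p under 0.05, 4 members were lower in SAP30-KO1 cells, namely H4C1, H4C3, H2BC12 and H2AC12, and 0 were higher. Among all genes 2.29% were lower and 3.09% were higher by that measure. The lowest adjusted p of a member was 0.808.

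By class, the 4 H4 genes with a summit were all lower by mean in SAP30-KO1 cells, with a median difference of −15.7, and 4 of 5 H3 genes were lower, with a median of −14.7. Of these, 2 H4 genes and no H3 gene were lower without overlap, beside 4.58% of all genes tested. Among all 12564 genes with a summit, 5893 were lower by mean. Both H1 genes were higher, with a median of 17.3. H2A had 5 lower and 4 higher genes and H2B had 7 and 5. The difference between classes was not tested. By place, 4 of 4 measured genes of the middle chr6 stretch were lower, as were 11 of 16 in the first and 4 of 8 in the last, and all 3 on chr1 were higher, with a median of 10.1.

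Finally, the promoters of the genes that act on the members were examined. Of 24 factors of histone gene transcription and histone pre-mRNA processing, 24 had a promoter summit in some library and 19 in all 6, with a median difference of 1.49. HINFP, which activates H4 genes, ranked 93.9, 89.3 and 96.7 in parental and 84.6, 81.8 and 64.05 in SAP30-KO1 cells, without overlap (limma, adjusted p = 0.808). CSTF2, a subunit of the 3′-end cleavage machinery, ranked 97.5, 86.2 and 88.6 and then 74.1, 73.8 and 53.6, also without overlap. NPAT ranked 99.0, 96.1 and 99.6 in parental and 96.6, 83.1 and 94.5 in SAP30-KO1 cells, overlapping at one pair of libraries. In the opposite direction, NFYC, a subunit of the CCAAT-binding factor, ranked 53.5, 54.6 and 43.6 in parental and 68.6, 80.5 and 58.9 in SAP30-KO1 cells. SLBP had no summit in parental libraries and ranked 4.84, 56.6 and 9.09 in SAP30-KO1 cells. Thus 2 of the 24 were lower and 2 higher without overlap, beside 4.58% and 6.01% of all genes. HINFP and NPAT both lie on 11q, where the 231 genes with a summit in all 6 libraries had a median difference of −12.5, and the part of the arm in their differences was not tested.

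Of 7 histone chaperone genes, 5 had a summit in all 6 libraries and none separated the groups, with a median difference of 4.05. ASF1B, which hands new H3 and H4 to the assembly factors, ranked 83.5 to 95.2 in parental and 93.2 to 98.2 in SAP30-KO1 cells. Of the 12 genes for replication-independent histone variants, 8 had a summit in some library and 7 in all 6. H3-3A, encoding the variant H3.3, ranked 71.3, 9.35 and 26.4 in parental and 73.8, 82.8 and 76.1 in SAP30-KO1 cells (limma, adjusted p = 0.808). It was the 1 variant gene of the 8 whose groups did not overlap. Among all genes tested 4.58% were lower and 6.01% higher without overlap. H2AZ1, encoding H2A.Z, had a mean rank of 90.4 ± 3.18 in the parental libraries and of 86.2 ± 5.20 with SAP30 knocked out (SD, n = 3).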

How the data were processed

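ATAC-seq libraries of 3 parental and 3 SAP30-KO1 samples of MDA-MB-231 were grouped by their labels. Per the study's methods, the authors sequenced 75-base single-end reads, trimmed them with Trim Galore 0.4.5, aligned them to hg19 with Bowtie2 2.3.3.1, discarded duplicates (Picard) and ran MACS2 2.1.0 on each library at q 0.05. Treatment of reads matching several places, a shift for the transposase and blacklisted regions are not given in the sources used here. The deposited lists hold 1 summit per peak, scored as −log10 q. Scores started just above 1.3, the −log10 of 0.05. They hold no reads, so depth is unknown and no counting interval is given.

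Scores were turned into percentile ranks within each list. Genes and transcript starts came from GENCODE release 44 mapped to GRCh37, and sequence from GRCh37. The 75-base windows were counted over chromosomes 1 to 22, X and Y. Ranks were compared with limma 3.58.1 (trend, robust, R 4.3.3) over the 12564 genes with a promoter summit in any library, with Benjamini-Hochberg adjustment. The number of members per library was compared with an exact permutation test. A gene was called separated when every library of a group ranked below every library of the other. Scripts were written in Python 3.11.15 and tested on simulated data.

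Members and gene lists were chosen with earlier results of these data known. Per-library values are given, among members with a summit in all 6 libraries, for the 5 highest and 5 lowest by mean rank, for the 5 largest differences in each direction and for members outside the main clusters. Other members were singled out after their values were seen. Clusters joined members less than 2 Mb apart. PECAM1, an endothelial marker, was not matched. Alternatives were promoter windows of 500 bp and 2.5 kb, q 0.0001, equal list lengths, 1 start per gene, shared summits counted once, ranks within an arm, a replicate block, the log2 score, genes with a summit in all 6 libraries, and each library left out. Leaving out members over 50% repeated, leaving HIST1H4B out of the neighbouring genes, and the median difference of the 21 members under some settings, were chosen after seeing the data. A variant histone gene and a promoter sequence are not reported here.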

Additional observations from a re-analysis of the deposited data

How the results depend on the processing

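The difference in the number of members with a summit, the median difference over 32 members, the chr6 minus chr1 value and the limma count kept their direction or their side of the threshold in all alternatives run. With each library left out they ranged from 1.83 to 3.33 members, from −6.37 to −2.69 rank points, from 44.6 to 56.2 rank points and from 0 to 0 members, and H2B minus H2A ranged from 7.03 to 13.2. The median difference was −1.78 with q 0.0001 and −2.62 with ranks within an arm. H2B minus H2A rose from 9.99 to 52.1 with shared summits counted once, which drops 1 gene of each shared pair. The count of members higher in SAP30-KO1 cells without overlap fell from 2 to 1 with a 500 bp window or shared summits counted once, and to 0 with q 0.0001 or equal list lengths. With each library left out, the counts without overlap ranged from 6 to 11 lower and from 2 to 6 higher members. The lower count was 11 without parental replicate 3, 10 without SAP30-KO1 replicate 3 and 9 without SAP30-KO1 replicate 2, and the higher count was 6 when parental replicate 2 was dropped and 4 when parental replicate 3 or SAP30-KO1 replicate 1 was. Fewer libraries overlap less often by construction, and all genes moved too, from 575 lower to 1085 without parental replicate 3. Within an arm 5 members were lower, H4C8 no longer among them. With a 2.5 kb window there were 6, among them H4C5 in place of H4C1. With equal list lengths there were 6, among them H4C3 and H3C10 in place of H2BC4 and H2AC6.

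Same-numbered libraries did not deviate together (correlations of deviations from the group means over genes of −0.0281, −0.0288 and 0.0161). These values cannot show whether same-numbered libraries were prepared together, and no label says so. With the replicate block, where a member counts if it moves one way in all 3 numbered pairs, 10 members were lower and 4 higher, beside 9.43% and 11.8% of all genes, and the limma count stayed at 0. The lists give no reads, so weak summits that appear in some libraries only, as at H2AC1, and a difference in depth cannot be told apart.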

Other observations

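Some genes next to the members carry older names that the naming rule did not take. HIST1H4B, an H4 gene in the chr6 cluster, had a promoter summit in all 6 libraries, with ranks of 53.7, 32.1 and 78.9 in parental and 6.64, 67.7 and 83.6 in SAP30-KO1 cells, which overlapped. HIST2H2AA3, an H2A gene in the chr1 cluster, had 100% repeated 75-base windows and no summit. H2BC12L on chromosome 21 had no summit either. HFE, a regulator of iron uptake whose start lies within the chr6 cluster, ranked 72.3, 5.80 and 50.7 in parental and 0, 16.1 and 3.31 in SAP30-KO1 cells.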
